A study of Mus musculus with 3 samples.

Results

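The 10 genes described here belong to insulin-like growth factor (IGF) signaling and to the IGF2BP and LIN28 families of RNA-binding proteins: Igf1, Igf1r, Igfbp2, Igfbp4, Igfbp5, Igfbpl1, Igf2bp1, Igf2bp2, Igf2bp3 and Lin28b. They are 10 of the 31053 genes listed in each count matrix, chosen by name and family, though with earlier results of these data known. The cells came from the neocortex (NCx) of SstCre/+;RCE mice on a C57Bl/6 background, in which Cre made from the Sst locus switches on a GFP reporter, and the sort kept GFP+ cells that excluded the dye DAPI. There was 1 single-cell library at each stage: E16.5 with 6 animals pooled, P1 with 3 and P5 with 3. The P1 and P5 tissue also had a myelin removal step and the P5 tissue was treated with trypsin, so stage and handling cannot be told apart. GFP marks every cell in which the Sst promoter has driven Cre, including cells with no Sst mRNA at the time of the sort.

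IGF-1 is a secreted growth factor that acts through IGF1R, a receptor tyrosine kinase that feeds the PI3K, AKT and mTOR pathway and the MAP kinase pathway and promotes neuronal growth and survival. Its access to the receptor is set by secreted binding proteins, the IGFBPs, which hold IGFs in the extracellular space and release them when proteases cut them. IGFBPL1 is a related secreted protein of developing neurons. The IGF2BPs bind, stabilize and localize mRNAs, Igf2 mRNA among them. LIN28 proteins block the maturation of the let-7 microRNAs, which in turn repress Lin28b, Igf2bp1 and other mRNAs of the fetal growth program.

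The let-7 sequences and their matches in these mRNAs are shown first because this shared seed links the RNA-binding proteins of the set; let-7 itself was not measured in these libraries. The mature mouse sequences are from RefSeq, with the seed, bases 2 to 8, in capitals, and 10 of the 11 mature names share the seed GAGGUAG.
mmu-let-7a-5p: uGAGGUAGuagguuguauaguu
mmu-let-7d-5p: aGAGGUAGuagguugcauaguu
mmu-miR-98-5p: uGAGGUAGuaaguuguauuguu

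The complement of that seed, CTACCTC, was searched on the sense strand of the 3′UTR of each member. The longest annotated 3′UTR of Igf2bp1 held 4 matches, and so did that of Lin28b. In each site below the capitals mark the 7 matching bases, and all 8 of these sites lie on the minus strand of GRCm38.
Igf2bp1, chr11:95961778-95961799: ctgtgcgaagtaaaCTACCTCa
Igf2bp1, chr11:95959357-95959378: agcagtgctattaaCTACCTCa
Igf2bp1, chr11:95958763-95958784: tataaatggatgaaCTACCTCa
Igf2bp1, chr11:95958140-95958161: cttttggttttaatCTACCTCt
Lin28b, chr10:45381022-45381043: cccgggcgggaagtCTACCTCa
Lin28b, chr10:45378648-45378669: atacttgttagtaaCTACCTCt
Lin28b, chr10:45378476-45378497: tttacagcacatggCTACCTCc
Lin28b, chr10:45377060-45377081: aatgatggcaccgaCTACCTCt

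Igf2bp2 and Igf2bp3 each held 1 match, both on the minus strand.
Igf2bp2, chr16:22059473-22059494: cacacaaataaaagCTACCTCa
Igf2bp3, chr6:49086787-49086808: gcatttttactcaaCTACCTCa

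Igf1r held 2 matches, Igf1 and Igfbp5 held 1 each, and no match was found in Igfbp2, Igfbp4 or Igfbpl1. For comparison, 9.01% of 20971 annotated mouse 3′UTRs held at least 1 match, and 25.2% of the 2793 that are 3000 bases or longer did. At least 4 matches were found in 0.0572% of all 3′UTRs, whose median length was 961 bases. The 3′UTRs of Igf2bp1 and Lin28b are longer, at 6337 and 4445 bases. Among those of 3000 bases or longer, 0.859% held at least 3 matches. A match is a stretch of letters and not a measured binding site.

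Cells with more than 700 genes and under 10% of UMIs (unique molecular identifiers, 1 per captured mRNA molecule) from mt- genes were kept, which left 3952, 2501 and 2980 cells at E16.5, P1 and P5 with 24632146, 10964193 and 12886663 UMIs. Median depth was 5577, 3293 and 3935.5 UMIs per cell. At P1, 56.3% of the deposited cells passed, against 88.3% at E16.5 and 87.5% at P5. At least 2 of 8 inhibitory neuron markers were found in at least 92.7% of kept cells of each library. The 8 hold Lhx6 and Sst but also Gad1, Gad2 and other genes not limited to neurons of the medial ganglionic eminence. Lhx6 itself was found in 84.0%, 78.6% and 76.0% of kept cells. Cells with 2 or more excitatory neuron markers numbered 45, 46 and 27. Those with 2 or more astroglia or radial glia markers numbered 446, 185 and 408. Those with 2 or more markers of inhibitory neurons of other eminences numbered 163, 58 and 12. Over all kept cells 9, 11 and 10 of the 12 astroglia or radial glia markers had a UMI, with Ddah1 the highest in each library. At 0 were Aqp4, Gfap and Gja1 at E16.5, Aldh1l1 at P1, and Gfap and Gja1 at P5. Which markers put a cell over the limit was not counted. In addition, 10 barcodes were shared between libraries.

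Within each library 3 cell classes were read. Cells with at least 1 Nos1 UMI, here Nos1 cells, numbered 67, 434 and 547. Nos1 encodes neuronal nitric oxide synthase, which marks cortical SST+ long-range projection neurons. Cells with at least 5 Sst UMIs and no Nos1, here Sst-high cells, numbered 1920, 757 and 896. Cells with Lhx6, a transcription factor of medial ganglionic eminence neurons, and 0 Sst UMIs, here Lhx6 Sst-0 cells, numbered 776, 491 and 559. These names state the gates and no cell type: a Nos1 UMI was also found in 31.1% (14 of 45), 37.0% and 11.1% of the excitatory-marker cells, and 42 cells over the 3 libraries were both Nos1 and Lhx6 Sst-0 cells. Sst was found in 82.1%, 90.8% and 96.0% of Nos1 cells.

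Levels are given as CPM, the UMIs of a gene per 1000000 UMIs of the summed cells. With 1 library per stage no difference between stages or classes was tested, and the intervals given are 95% exact intervals that cover counting error only. A gene is called higher or lower here when its log2 ratio of (CPM + 1) was beyond 1 in either direction, a 2-fold change, with at least 10 UMIs over both sums.

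Between E16.5 and P5 the set split in both directions. Igf1 and Igfbp5 were higher at P5, while Igf1r, Igfbp2, Igfbp4, Igfbpl1, Igf2bp1 and Igf2bp2 were lower, and Igf2bp3 and Lin28b stayed within 2-fold. That is 2 members higher and 6 lower of 10, where 16.9% of all genes tested were called higher and 10.8% lower with a median log2 ratio of 0.09. The direction differs within the binding proteins and within the IGF2BP family.

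**Figure D1:**
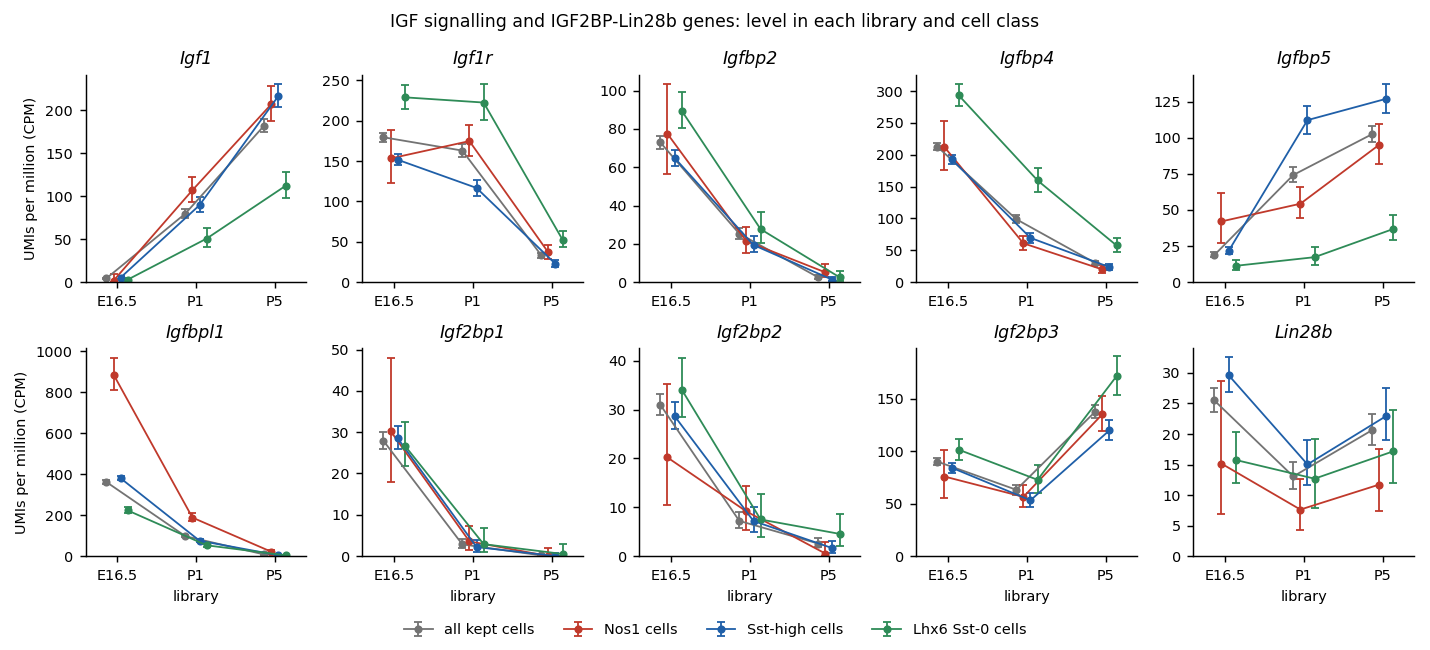
Level of each of the 10 genes in CPM (y axis, linear, own scale for each gene) at E16.5, P1 and P5 (x axis) in all kept cells, Nos1 cells, Sst-high cells and Lhx6 Sst-0 cells; bars are 95% exact counting intervals and lines join the 3 libraries. Igf1 goes from 4.38 to 182 in all kept cells and Igfbpl1 from 362 to 7.53, while Igf2bp3 is highest at P5 at 138.

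The ligand showed the largest increase of the set. Igf1 (chr10:87858265-87937042, plus strand) stood at 4.38 CPM at E16.5 (108 UMIs), 79.8 at P1 (875 UMIs) and 182 at P5 (2351 UMIs). The level was 18.2-fold higher at P1 than at E16.5 (14.9 to 22.4), 2.29-fold higher at P5 than at P1 (2.11 to 2.47), and 41.6-fold higher over the whole span (34.3 to 50.9). Most of the log2 difference was thus present by P1. An Igf1 UMI was found in 1.80%, 18.6% and 38.1% of kept cells, or 0.636%, 10.4% and 25.5% when each cell was thinned to 2000 UMIs.

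The increase was seen in each class. In Nos1 cells Igf1 went from 1.68 CPM, a single UMI, through 107 to 207. In Sst-high cells it went from 5.28 through 89.7 to 217, and in Lhx6 Sst-0 cells from 2.89 through 50.7 to 112. Nos1 and Sst-high cells did not differ beyond counting error at P5, with a ratio of 1.05, whereas Lhx6 Sst-0 cells were 1.93-fold below Sst-high cells (1.67 to 2.25). The same class stood 1.77-fold below them at P1 (1.40 to 2.25) and 1.83-fold at E16.5, the last with an interval that held 1. At P1 the log2 ratio was -1.78 in place of -0.81 with more than 1000 genes and under 5% mt- UMIs. Microglia, a known source of IGF-1 in postnatal brain, had their markers in 0, 0 and 3 cells, and those 3 cells held 8 of the 2351 Igf1 UMIs of P5. Cells with 2 or more astroglia or radial glia markers held more, with 38.0%, 17.5% and 23.1% of the Igf1 UMIs at E16.5, P1 and P5. They were 11.3%, 7.40% and 13.7% of kept cells, and their share in the Igf1 increase was not tested.

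The receptor went the other way, and later. Igf1r (chr7:67952827-68233668, plus strand) stood at 179 CPM in the E16.5 library, 163 in the P1 library and 33.3 in the P5 library. The P1 level was 1.10-fold below that of E16.5, and the P5 level was 4.89-fold below that of P1 (4.40 to 5.45). The share of cells with an Igf1r UMI was 61.4%, 46.3% and 12.8%, and 31.9%, 30.0% and 6.79% at equal depth. Over all kept cells Igf1r thus differed little across birth and was low by P5, while Igf1 was already high at P1.

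All classes showed the late decrease of Igf1r, with levels of 153, 175 and 36.7 CPM in Nos1 cells, 152, 117 and 22.6 in Sst-high cells and 229, 222 and 52.5 in Lhx6 Sst-0 cells. In Sst-high cells the P1 level was already 1.30-fold below that of E16.5 (1.18 to 1.43). Lhx6 Sst-0 cells stood above Sst-high cells at every stage, by 1.51-fold (1.39 to 1.63), 1.91-fold (1.67 to 2.18) and 2.33-fold (1.77 to 3.07), and only the P5 difference passed 2-fold. Nos1 cells did not differ from Sst-high cells at E16.5 beyond counting error, with a ratio of 1.01. They were 1.5-fold above them at P1 (1.30 to 1.72) and 1.63-fold at P5 (1.19 to 2.20). At P1 these class differences were smaller among cells with more than 1000 genes and under 5% mt- UMIs, at a log2 ratio of 0.36 for Lhx6 Sst-0 cells and 0.21 for Nos1 cells.

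Of the other ligands and receptors, Igf2 had 0 UMIs in every library, which allows up to 3 UMIs in each. Most of its exon bases, 62.8%, are also annotated to a same-strand gene, and reads over those bases cannot be given to 1 gene. Insr, the insulin receptor, stood at 38.7, 55.7 and 24.4 CPM, and Igf2r, which takes up IGF-2 for degradation, at 17.8, 20.6 and 11.8. Neither was called between E16.5 and P5, but Insr was lower past 2-fold at P5 than at P1, with a log2 ratio of -1.16.

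**Figure D2:**
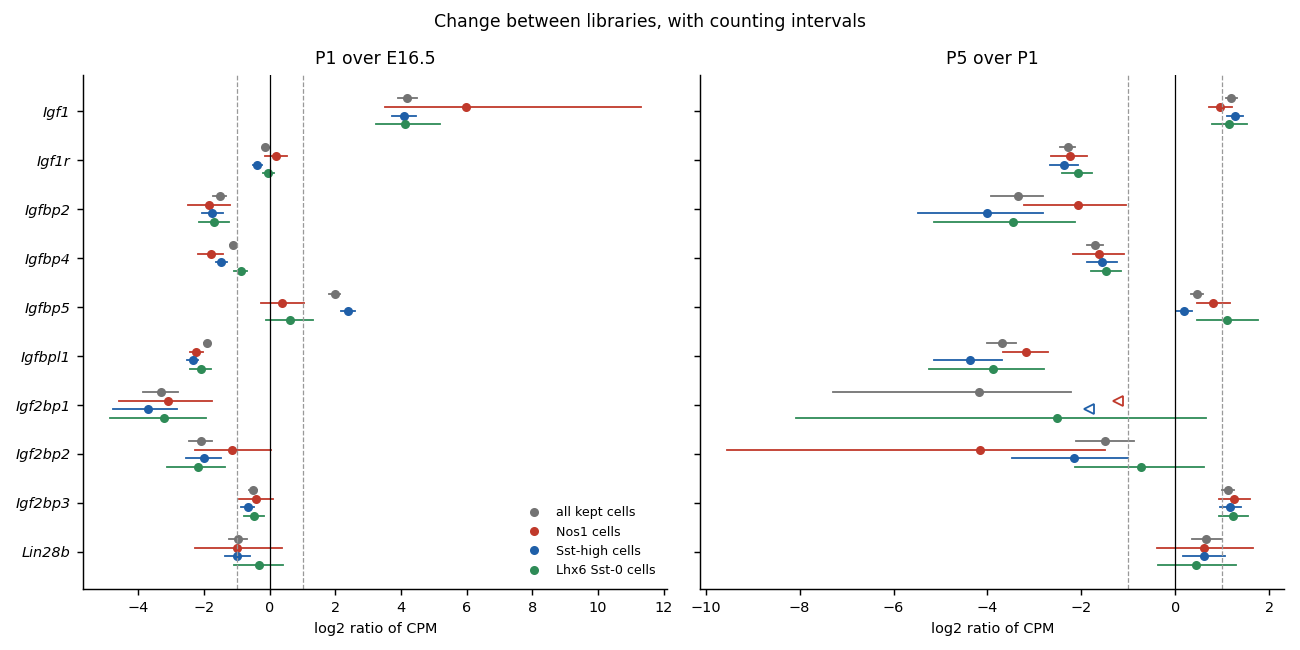
Log2 ratio of CPM between libraries (x axis) for each gene (y axis), P1 over E16.5 on the left and P5 over P1 on the right, in all kept cells and the 3 classes; bars are 95% counting intervals, dashed lines mark 2-fold and open triangles are bounds where P5 had 0 UMIs. Igf1r lies near 0 in the left panel and below the 2-fold line in the right one for every class.

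Among the binding proteins, Igfbp2, Igfbp4 and Igfbpl1 decreased from library to library and Igfbp5 increased. Igfbp2 (chr1:72824503-72852474, plus strand), a binding protein of fetal brain, stood at 72.9, 25.3 and 2.48 CPM. It was 29.4-fold lower at P5 than at E16.5 (20.7 to 43.1), with 32 UMIs left at P5. Class levels were, in Nos1, Sst-high and Lhx6 Sst-0 cells, 77.4, 64.9 and 89.5 CPM at E16.5 and 21.3, 19.4 and 27.7 at P1, and the 1.38-fold difference between Lhx6 Sst-0 and Sst-high cells at E16.5 (1.22 to 1.56) was beyond counting error. At P5 the classes held 10, 6 and 5 UMIs, and Nos1 cells were 4.21-fold above Sst-high cells with a wide interval of 1.39 to 14.1.

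Igfbp4 (chr11:99041244-99054392, plus strand), a binding protein that mainly inhibits IGF action, stood at 213, 98.8 and 30.1 CPM. It was 2.15-fold lower at P1 than at E16.5 (2.02 to 2.30) and 3.28-fold lower at P5 than at P1 (2.92 to 3.69). Lhx6 Sst-0 cells held the most at each stage, with 293, 160 and 57.6 CPM against 193, 69.4 and 23.6 in Sst-high cells and 212, 60.9 and 19.9 in Nos1 cells. The ratio of Lhx6 Sst-0 to Sst-high cells was 1.52 (1.42 to 1.63), 2.30 (1.95 to 2.71) and 2.44 (1.87 to 3.19). As gated, Nos1 and Sst-high cells did not differ beyond counting error at any stage, but this depended on the gate and on depth. At E16.5 the Nos1 level was 300.2 CPM (249 to 358) without the 14 excitatory-marker cells. The log2 ratio at E16.5 was 0.13 as gated, -1.17 with at least 2 Nos1 UMIs and 0.78 at 2000 UMIs per cell, and that at P5 was -0.24 as gated and -0.96 at equal depth.

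Igfbp5 (chr1:72857932-72874884, minus strand) is the neighbor of Igfbp2, with 5.457 kb and 0 annotated genes between them, on the opposite strand. It stood at 18.8, 74.2 and 103 CPM, so these neighbors moved in opposite directions. Igfbp5 was 3.96-fold higher at P1 than at E16.5 (3.53 to 4.45) and a further 1.38-fold higher at P5 (1.27 to 1.51). The timing depended on the cells kept: with more than 1000 genes and under 5% mt- UMIs the log2 ratio was 1.15 in place of 1.93 for the first interval and 1.82 in place of 0.46 for the next.

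At P1 and P5 Igfbp5 was the member with the largest difference between Lhx6 Sst-0 and Sst-high cells. Sst-high cells stood at 21.5, 112 and 127 CPM, and Lhx6 Sst-0 cells at 11.3, 17.3 and 36.9. Lhx6 Sst-0 cells were 1.91-fold lower at E16.5 (1.38 to 2.69), 6.5-fold at P1 (4.49 to 9.73) and 3.45-fold at P5 (2.70 to 4.45). Nos1 cells stood at 42.1, 54.3 and 95.3 CPM, which was 1.95-fold above Sst-high cells at E16.5 and 2.07-fold and 1.33-fold below them at P1 and P5. With more than 1000 genes and under 5% mt- UMIs the P1 log2 ratio was -2.86 in place of -1.03, and Nos1 cells of P1 stood at 8.94 CPM under 5% mt- UMIs and at 92.1 at or above it. The E16.5 value rests on 1 cell: 24 of the 25 Igfbp5 UMIs of Nos1 cells were in a single excitatory-marker cell, and 2.44 CPM, 1 UMI, was left without the 14 excitatory-marker cells of that class.

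Igfbpl1 (chr4:45809468-45826923, minus strand) stood at 362, 97.1 and 7.53 CPM, and UMIs of it were found in 52.0%, 25.5% and 2.79% of kept cells, or 37.3%, 18.6% and 0.982% at 2000 UMIs per cell. It was 3.72-fold lower at P1 than at E16.5 (3.49 to 3.97) and 12.9-fold lower at P5 than at P1 (10.5 to 16.1), or 48.0-fold over both (39.3 to 59.3). The sizes of these steps depended on the cells kept. With more than 1000 genes and under 5% mt- UMIs the log2 ratio of P1 over E16.5 was -1.11 in place of -1.89. That of P5 over P1 was -4.63 in place of -3.52. In cells with an Igfbpl1 UMI the mean was 4.34, 1.67 and 1.17 UMIs in the 3 libraries, so the number of cells and the amount per cell both went down. The decrease between E16.5 and P5 was 42.5-fold in Nos1 cells, 105-fold in Sst-high cells and 63.0-fold in Lhx6 Sst-0 cells.

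Igfbpl1 was the member that most set Nos1 cells above Sst-high cells as gated. Nos1 cells stood at 887, 188 and 20.9 CPM against 380, 74.9 and 3.63 in Sst-high cells and 223, 52.4 and 3.54 in Lhx6 Sst-0 cells. The ratio of Nos1 to Sst-high cells was 2.33 (2.13 to 2.55), 2.51 (2.16 to 2.91) and 5.76 (3.24 to 10.7). The last rests on 41 and 18 UMIs. At E16.5, 50.1% of the Igfbpl1 UMIs of Nos1 cells were in its 14 excitatory-marker cells, and without them the log2 ratio was 0.75 in place of 1.22. With each cell thinned to 2000 UMIs the E16.5 log2 ratio was 0.95, the P1 log2 ratio 0.91 and the P5 log2 ratio 1.89.

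At P1 Igfbpl1 also moved with the share of mt- UMIs. Sst-high cells with under 5% mt- UMIs stood at 192 CPM (228 cells, median 2503 UMIs) and those at or above 5% at 53 (529 cells, median 6352 UMIs). In Nos1 cells the values were 236 and 148. At E16.5 Sst-high cells stood at 436 CPM under 5% mt- UMIs and at 233 at or above it. With more than 1000 genes and under 5% mt- UMIs the log2 ratio of Nos1 over Sst-high cells at P1 was 0.23 in place of 1.32, so the difference at P1 was not stable to the cell filter, and the part of cell quality in it was not tested. The P5 log2 ratio was 1.92 under the same filter.

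Of the other binding proteins, proteases and inhibitors on the list, none was called between E16.5 and P5: 0 of the 2 other binding proteins tested and 0 of 5 genes for proteases that cut IGFBPs and their inhibitors. Over all genes 16.9% were higher and 10.8% lower. Igfbp3, named after its values were seen, was highest in the P1 library, with 22.9, 79.7 and 19.8 CPM.

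The IGF2BP genes did not share a pattern. Igf2bp1 (chr11:95957163-96005940, minus strand) stood at 27.9 CPM at E16.5 (688 UMIs), 2.83 at P1 (31 UMIs) and 0.155 at P5 (2 UMIs). It was 9.88-fold lower at P1 than at E16.5 (6.89 to 14.7), the largest decrease of the set over that interval. At P5 it was 180-fold lower than at E16.5, with an interval of 49.6 to 1489 since only 2 UMIs were left. In Sst-high cells it was at least 47.2-fold lower and in Nos1 cells at least 19.8-fold, each against 0 UMIs at P5 taken as 3. Without excitatory-marker cells it was at least 6.36-fold lower in Nos1 cells, from 4 UMIs at E16.5.

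Igf2bp2 (chr16:22059009-22163299, minus strand) followed the same course over a smaller range, with 31.0, 7.21 and 2.56 CPM (763, 79 and 33 UMIs). It was 4.30-fold lower at P1 than at E16.5 (3.41 to 5.49) and 12.1-fold lower at P5 (8.54 to 17.7). Neither Nos1 nor Lhx6 Sst-0 cells differed from Sst-high cells beyond counting error for Igf2bp1 or Igf2bp2 at any stage as gated. At E16.5 Nos1 cells were 1.06-fold above Sst-high cells for Igf2bp1 and 1.42-fold below them for Igf2bp2. Nos1 and Lhx6 Sst-0 cells were not compared with each other. Without the excitatory-marker cells Igf2bp1 in Nos1 cells of E16.5 stood at 9.76 CPM in place of 30.3, since those 14 cells held 77.8% of its 18 UMIs.

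Igf2bp3 (chr6:49085223-49214957, minus strand) was highest at P5. It stood at 89.96, 63.1 and 138 CPM, which was 1.43-fold lower at P1 than at E16.5 (1.31 to 1.55) and 2.18-fold higher at P5 than at P1 (1.99 to 2.38). The share of cells with a UMI was 42.8%, 23.4% and 44.1%, or 17.0%, 12.7% and 24.8% at equal depth. The word embryonic thus fits Igf2bp1 and Igf2bp2 in these libraries and not Igf2bp3. The gene overlaps Malsu1 on the opposite strand over 18.7% of its exon bases, and Malsu1 stood at 62.0, 43.3 and 57.3 CPM.

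The P5 level of Igf2bp3 was shared by the classes, at 135 CPM in Nos1 cells, 120 in Sst-high cells and 171 in Lhx6 Sst-0 cells, after 56.4, 53.1 and 72.6 at P1 and 75.7, 84.2 and 101 at E16.5. Lhx6 Sst-0 cells were 1.20-fold (1.07 to 1.35), 1.37-fold (1.09 to 1.70) and 1.43-fold (1.25 to 1.64) above Sst-high cells. Nos1 and Sst-high cells did not differ beyond counting error at any stage. With more than 1000 genes and under 5% mt- UMIs the log2 ratio of P5 over P1 in all kept cells was 0.80 in place of 1.11, which is under 2-fold.

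Lin28b (chr10:45376620-45486395, minus strand) was within 2-fold of its E16.5 level in both postnatal libraries as counted, though at P1 only just. It stood at 25.5, 13.0 and 20.6 CPM, and its P5 level was 1.24-fold below that of E16.5 (1.07 to 1.43). A Lin28b UMI was found in 13.6%, 5.28% and 7.92% of kept cells and, at equal depth, in 4.37%, 2.13% and 3.19%. The dip at P1 was 1.95-fold (1.63 to 2.36). At equal depth the log2 ratio was -1.06 in place of -0.92, and with the TMM scaling of edgeR it was -1.15, both past 2-fold. Lin28a, the other LIN28 gene, had 0 UMIs in every library, and Hmga2, a let-7 target of fetal tissue, stood at 1.5, 1.00 and 0.466 CPM.

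Nos1 cells held less Lin28b than Sst-high cells as counted, just under 2-fold in each library, but the size of the difference depended on depth and filter. Their levels were 15.2, 7.62 and 11.7 CPM against 29.7, 15.0 and 23.0. The ratios were 1.96 (1.02 to 4.31), 1.97 (1.12 to 3.71) and 1.96 (1.24 to 3.22), on 9, 15 and 23 UMIs in Nos1 cells. The E16.5 value did not hold at equal depth, where the log2 ratio was 0.23 in place of -0.92, while at P1 and P5 it was -2.34 and -1.28. With more than 1000 genes and under 5% mt- UMIs it was -1.74 at P1. Lhx6 Sst-0 cells were 1.88-fold below Sst-high cells at E16.5 (1.43 to 2.51), and at P1 and P5 the intervals held 1.

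**Figure D3:**
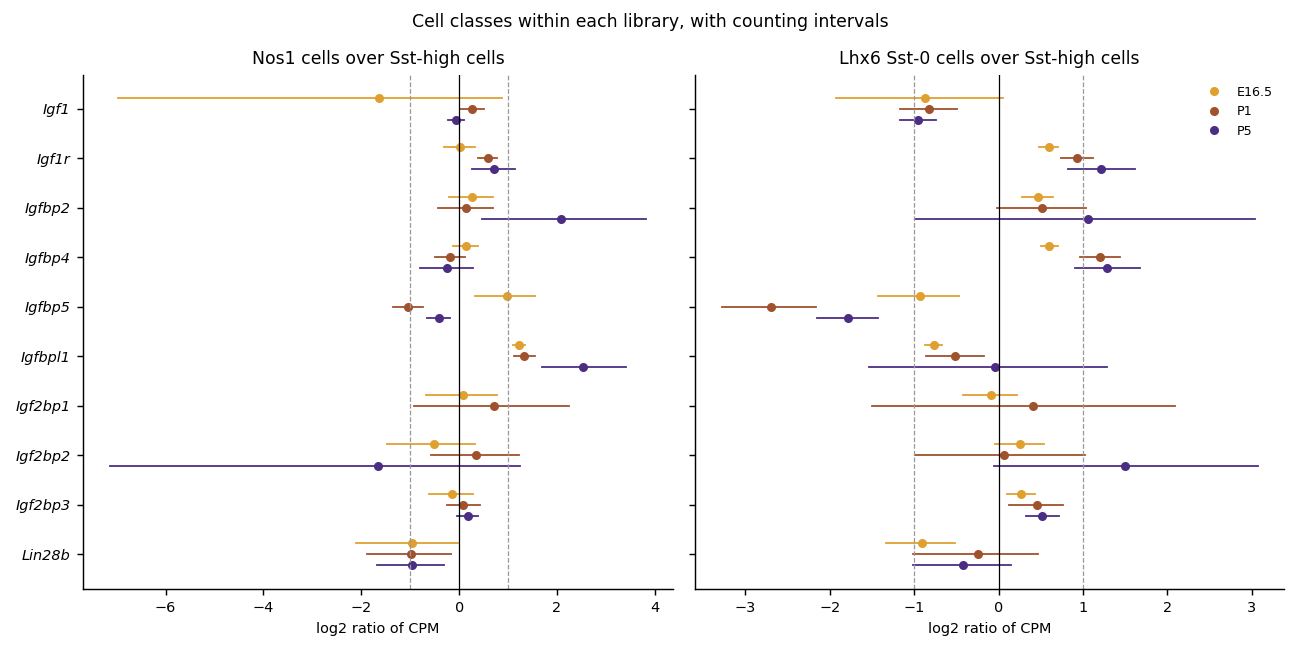
Log2 ratio of CPM (x axis) of Nos1 over Sst-high cells (left) and of Lhx6 Sst-0 over Sst-high cells (right) for each gene (y axis) at E16.5, P1 and P5; bars are 95% counting intervals and dashed lines mark 2-fold. Igfbpl1 lies to the right and Lin28b to the left in the left panel at all 3 stages, and Igfbp5 lies to the left in the right panel.

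More members were called between libraries than between classes of 1 library. In all kept cells 2 members were higher and 5 lower at P1 than at E16.5 (10.6% and 2.91% of all genes), and 2 were higher and 6 lower at P5 than at P1 (7.64% and 9.03%). The P5 over E16.5 comparison gave the same 2 higher and 6 lower in Nos1 cells (18.2% and 14.8% of all genes), Sst-high cells (17.7% and 12.6%) and Lhx6 Sst-0 cells (19.9% and 15.2%). For Nos1 over Sst-high cells 2 members were called at each stage, where 14.6%, 7.46% and 11.1% of all genes were called in either direction. For Lhx6 Sst-0 over Sst-high cells 0, 2 and 4 members were called at E16.5, P1 and P5, against 6.07%, 10.1% and 7.14% of all genes. The 4 at P5 were Igf1r, Igfbp4, Igfbp5 and Igf2bp2, the last on 9 and 8 UMIs with an interval that held 1.

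The members called between Nos1 and Sst-high cells were Igfbpl1 at each stage, Igf1 at E16.5 on 1 and 76 UMIs with an interval that held 1, Igfbp5 at P1 and Igfbp2 at P5. Without the 14 excitatory-marker cells the count at E16.5 was again 2, but it was made up of Igfbp5 and Igf2bp1, both lower, at log2 ratios of -2.71 and -1.46. Of the UMIs of E16.5 Nos1 cells these 14 cells also held 67.4% of Igfbp2. The same removal at P1 left 3 members called, with Lin28b at -1.07 and Igfbp5 at -1.46. The share of all genes called after such a removal is not given here, so these counts cannot be set against a background.

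**Figure D4:**
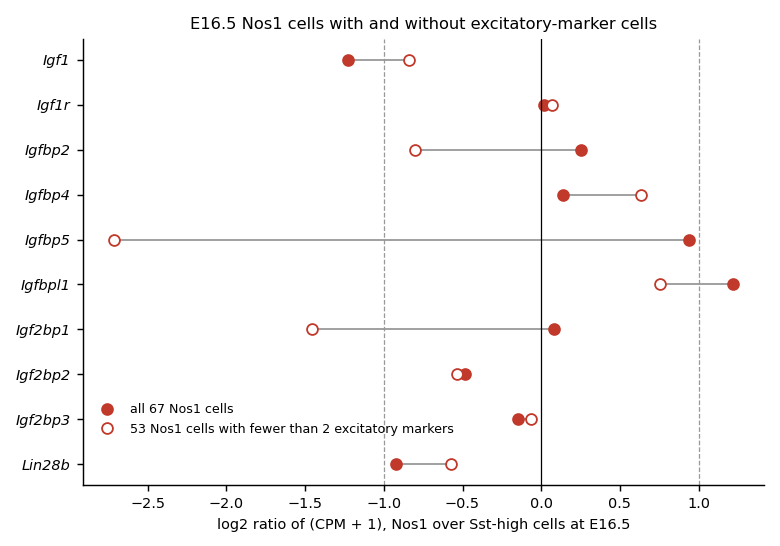
Log2 ratio of (CPM + 1) of Nos1 over Sst-high cells at E16.5 (x axis) for each gene (y axis), with all 67 Nos1 cells (filled) and with the 53 that carry fewer than 2 excitatory markers (open); dashed lines mark 2-fold. Igfbp5 moves from 0.94 to -2.71 and Igf2bp1 from 0.08 to -1.46.

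Shares of cells with a UMI need a background in droplet data, where free RNA can enter any cell, and no type in these libraries is known to lack these mRNAs. The excitatory-marker cells were taken as a reference, but they are few, and at E16.5 and P1 they were deeper than all kept cells, with medians of 11905, 5814.5 and 3743 UMIs. As counted, an Igf1 UMI was found in 8.89%, 6.52% and 3.70% of them, or 4 of 45, 3 of 46 and 1 of 27 cells, too few to place a share at background or above it. At 2000 UMIs per cell Lin28b was found in 0 of 44, 0 of 42 and 1 of 24 of them, against 4.37%, 2.13% and 3.19% of all kept cells. For Igf2bp3 the equal-depth shares in them were 11.4%, 11.9% and 25.0%, against 17.0%, 12.7% and 24.8%. Igfbpl1 and Igfbp2 were found in larger shares of them than of all kept cells at E16.5, with 70.5% against 37.3% and 27.3% against 13.7% at equal depth. Igf2bp1 at P5 with 2 cells in 2980 or 0.0671%, and Igfbp2 and Igf2bp2 at P5 with 1.04% and 1.07%, are at a level where free RNA and expression cannot be told apart.

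Within Sst-high cells the members were also compared by subtype gene, and the pairs past 2-fold depended on depth. Cells were divided by a UMI of each of 18 genes that mark groups of SST+ neurons, and of 126 pairs of gene and member 2 were higher and 6 lower past 2-fold in all 3 libraries, against 0.888% of pairs over all genes. Igfbpl1 took part in 6 of the 8. These divisions follow sequencing depth as well as type, since deeper cells more often show a UMI. At 2000 UMIs per cell 7 of 108 pairs were past 2-fold in all 3 libraries, where 5.75% of pairs over all genes were, and of the 8 only Pdyn and Igfbp5 was among them. None of the 7 held Igfbpl1, which had under 10 UMIs at P5 in the Cort and Npy divisions at that depth. Nr2f2 and Igfbp5 was the pair of the 7 with UMIs of the member in every group, and each other pair had 0 UMIs in the smaller group of at least 1 library.

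Cort, which encodes the neuropeptide cortistatin, divided both Igfbpl1 and Igfbp4. Cort+ cells held less Igfbpl1 than Cort- cells, at 71.7 against 518 CPM at E16.5, 12.5 against 134 at P1 and 1.04 against 7.24 at P5. They held more Igfbp4, at 342 against 126, 99.9 against 40.4 and 33.2 against 10.1 CPM. Cort+ cells were deeper, with a median of 10595 against 5948.5 UMIs at E16.5. At 2000 UMIs per cell the log2 ratios were -2.56 and -2.64 for Igfbpl1 at E16.5 and P1, with too few UMIs at P5, and 0.99, 1.26 and 2.18 for Igfbp4.

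Npy, which encodes neuropeptide Y, divided Igfbpl1 the other way, with 442 against 144 CPM at E16.5, 90.8 against 14.6 at P1 and 5.15 against 1.08 at P5 in Npy+ and Npy- cells. At 2000 UMIs per cell the log2 ratio was 1.40 at E16.5 and 4.12 at P1. Igfbpl1 was also lower in cells with Rbp4, Gpx3, Mef2c or Crh, the last in few cells, and Igfbp5 was lower in cells with Pdyn. For Mef2c, a transcription factor of maturing interneurons, the log2 ratio at equal depth was only -0.53 at E16.5 and -0.64 at P1, under 2-fold.

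Nr2f2 and Reln are named after their values were seen. Igfbp5 was higher in cells with Nr2f2, a transcription factor gene also called COUP-TFII, at a log2 ratio of 1.00, 1.38 and 1.47 and, at equal depth, 1.01, 1.83 and 1.20. Its levels in Nr2f2+ and Nr2f2- cells were 31.7 and 15.4 CPM in the E16.5 library, 183 and 69.7 in that of P1 and 215 and 76.7 in that of P5. The E16.5 ratio lies at the 2-fold line. Igf1 was higher in cells with Reln, which encodes the secreted protein reelin, at 0.74, 0.69 and 1.01, and at equal depth at -0.60, 0.89 and 0.52, so its sign at E16.5 changed with depth.

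A few pairs of members, named after their values were seen, met in the same cell less or more often than their separate shares would give. In Lhx6+ cells of E16.5 thinned to 2000 UMIs, 168 cells held both Igfbp4 and Igfbpl1 where 243 would do so if they were independent, and 4 held both Igfbp5 and Igfbpl1 where 14.5 would. At P5, 10 cells held both Igf1 and Igfbp4 where 16.9 would. Igf2bp2 and Lin28b met in 13 cells at E16.5 against 5.85. These counts are descriptions of single libraries.

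The genes listed with the members, from ligands to let-7 targets, mostly stayed within 2-fold. Of 92 such genes 83 were tested between E16.5 and P5, and 7 were higher and 5 lower with a median log2 ratio of -0.05, where 16.9% of all genes were higher and 10.8% lower with a median of 0.09. Among the 35 signal transduction genes below the receptor 4 were higher and 3 lower, with a median of 0.01. Irs4, an adaptor of the insulin and IGF receptors, stood at 0.528, 5.11 and 8.23 CPM. Grb10, an adaptor that dampens these receptors, stood at 2.80, 9.21 and 13.0. Eif4ebp1, a repressor of translation under mTOR control, stood at 0.853, 3.83 and 12.2.

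The let-7 lists were also mostly within 2-fold. Of 15 genes that handle let-7 precursors 0 were higher and 1 was lower: Zcchc11, the terminal uridylyl transferase TUT4 that acts with LIN28 on those precursors, at 209, 161 and 75.9 CPM. Of 24 commonly listed let-7 targets that are no members, 3 were higher and 1 lower. The shares of all genes in this comparison were 16.9% and 10.8%, so these few calls do not set the lists apart. Ccnd2, a D-type cyclin, stood at 6.90, 22.2 and 60.0 CPM and Plagl1, an imprinted zinc finger gene, at 9.34, 16.9 and 26.2. Mycn, a MYC family transcription factor, went from 45.0 and 62.4 to 15.6. The longest annotated 3′UTR of Ccnd2, Plagl1 and Mycn held 0 matches to the seed each, while that of Hmga2 held 4.

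**Figure D5:**
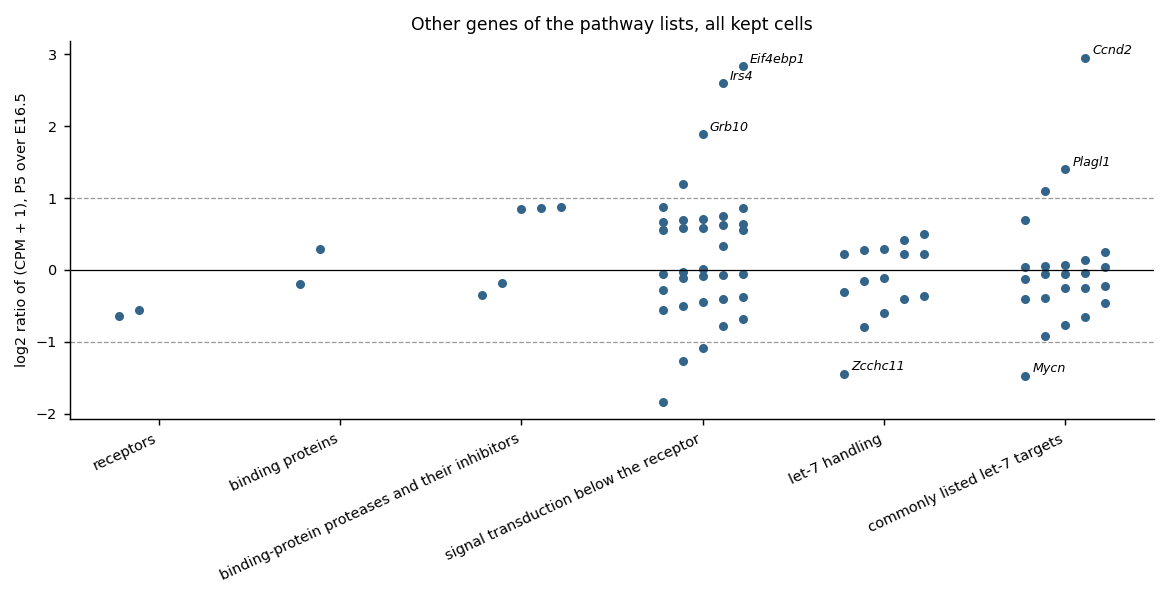
Log2 ratio of (CPM + 1), P5 over E16.5 in all kept cells (y axis), of the tested genes of each pathway list without the members (x axis), 1 point per gene; dashed lines mark 2-fold and the named genes are those with the largest ratios of their list. Most points lie between the lines, with Ccnd2 at 2.95 and Eif4ebp1 at 2.83 highest.

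The genes most like each member over the 9 sums of 3 classes and 3 libraries were found among 6336 genes by Pearson's r of log2(CPM + 1). The 9 sums share 3 libraries, so a gene that differs between stages correlates with many others, and 42 cells enter more than one sum. For Igf1 they were Map4, Nptxr and Timp2, and for Igf1r Pwwp2a, Hnrnpdl and Mex3a. For the binding proteins they were Cnn3, Ran and Hnrnph3 (Igfbp2), Ythdf2, Mettl9 and Bclaf3 (Igfbp4), Ogfrl1, Fndc3b and Sorcs3 (Igfbp5) and 2610037D02Rik, Pigp and Tceal9 (Igfbpl1). Igf2bp1 was most like Med22, Kif3a and Strap, and Igf2bp2 most like Rbm18, Nufip1 and Smu1. Igf2bp3 was most like Ppdpf and the ribosomal protein genes Rpsa and Rpl28, at r of 0.97 to 0.96. Lin28b was most like Sipa1l2, Cox5a and Mpst at 0.87 to 0.86, the lowest likeness of the set.

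Between members, Igf2bp1 and Igf2bp2 had an r of 0.95, and so had Igfbp2 and Igfbpl1. Igf1 and Igf2bp1 had an r of -0.97. These values describe the same 9 sums.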

How the data were processed

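GFP+ NCx cells were profiled with 10x Chromium. The authors deposited 1 matrix of whole-number UMI counts per library, not normalized. The matrix headers name Cell Ranger 3.1.0 for E16.5 and P5 and 3.0.2 for P1. The paper gives STAR on GRCm38 for the alignment. The annotation release is not given in the sources used here, and doublets were not removed here, nor was removal before deposit stated. Counts were summed per library and class and scaled to CPM; shares have Clopper-Pearson, levels exact Poisson and ratios exact conditional binomial intervals. Depth was 3293 to 5577 median UMIs per kept cell, and the precision of each value follows from its UMIs. No test across replicates was possible with 1 library per stage. The members and lists were chosen with earlier results of these data known. Named genes are the 10 members, the 3 other genes of each list with the largest change past 2-fold, the 3 genes most like each member, and Igf2, Insr, Igf2r, Lin28a and Hmga2. In a simulation of counting error on whole-library sums, 98 of 100 genes changed 4-fold between P5 and E16.5 were recovered (14718 genes run). The changed genes had at least 50 UMIs at E16.5, so class sums with few UMIs were not covered. In all, 20 alternatives were planned, and 1, without excitatory-marker cells, was chosen after seeing the data. Positions and 3′UTRs are from GENCODE M21 on GRCm38, miRNAs from RefSeq. Python 3.11.15, numpy 2.4.6, scipy 1.17.1, pandas 2.3.3, matplotlib 3.10.9 and edgeR 4.0.16 (TMM factors as an alternative scaling) were used.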

Additional observations from a re-analysis of the deposited data

Results flagged for a closer look

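The ratio of Igfbp5 between Nos1 and Sst-high cells had opposite signs at different stages, with a log2 ratio of 0.94 at E16.5 but -1.03 in the P1 library and -0.41 in the P5 library. The difference between stages was not tested. The E16.5 value rests on 24 UMIs in 1 cell with excitatory markers, and without such cells it was -2.71, on 1 UMI, which has the sign of the other stages.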

How the results depend on the processing

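No paired analysis was possible because each stage is 1 library and the replicate numbers only name samples; for the same reason no replicate could be left out. Between stages, the number of members past 2-fold stayed within 1.5 times under each alternative. Between classes the counts were less stable. For Nos1 over Sst-high cells, with 2 members called at each stage, 1 was called at E16.5 with per-cell means, with a pseudocount of 10 CPM or with cells thinned to 2000 UMIs, 1 at P1 with that pseudocount, and 1 at P5 with more than 1000 genes and under 5% mt- UMIs, with that pseudocount or with at least 50 UMIs; a 1.5-fold call gave 4 at E16.5 and at P5. For Lhx6 Sst-0 over Sst-high cells at E16.5, where 0 were called, 1 was called with no cell filter, per-cell means, thinning or at least 2 Lhx6 UMIs and 6 at 1.5-fold. At P1 the 2 became 4 with thinning and at 1.5-fold, and at P5 the 4 became 2 with that pseudocount and with thinning. The 12 pathway list genes became 33 at 1.5-fold. Over all single values and alternatives, 2487 stayed within the counting interval of the reported value. Another 430 moved outside it with no change of sign in a called value. Of the 2487, the 1.5-fold call and the absence of a UMI limit gave 175 each, and the limit of 50 UMIs gave 156. Those settings change which values are called or tested and cannot move a value, so these values do not bear on stability. The sign changed under at least 1 alternative for 29 single values, of which 1 was past 2-fold as reported and 6 were under 2-fold with an interval that excluded 0, Lin28b and Igfbp5 between Nos1 and Sst-high cells at E16.5 among them. The called one was Igfbp5 in Nos1 cells, P5 over E16.5, from a log2 ratio of 1.16 to -0.023 with at least 2 Nos1 UMIs; it was 4.81 without excitatory-marker cells. TMM scaling moved the median log2 ratio of all genes by -0.15 for P5 over E16.5 and by -0.20 for P1 over E16.5 in all kept cells, and by -0.24 for Nos1 over Sst-high cells at E16.5. The causes were not tested. Depth limits the members with under 50 UMIs in a sum, chiefly at P5.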
